A study of Mus musculus with 16 samples.

Results

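Regulated exocytosis is the calcium-triggered release of stored hormone or transmitter from endocrine and neuronal cells. The 10 genes described here were listed under it, although the function of Vwa5b2 is little known. They are Rimbp2, Baiap3, Syt7, Syt13, Scgn, Cplx2, Stxbp5l, Ptprn, Ptprn2 and Vwa5b2, taken by name out of the 55359 genes of the count table, and all 10 passed the filter on low counts in both comparisons of genotype. They were measured by RNA sequencing of whole intestinal tissue from male C57BL/6N mice on standard chow. The mutants were Neurog3f/f mice carrying Villin-CreERT2, a tamoxifen-inducible Cre driven in the intestinal epithelium by the Villin promoter (animals NFVCT27, NFVCT38, NFVCT153 and NFVCT190). The controls were Neurog3f/f mice without the transgene (animals NF17, NF29, NF32 and NF152). Duodenum and ileum were taken from each of the 8 animals 18 weeks after tamoxifen, which gave 4 libraries per genotype and tissue. The labels do not say separately that the controls received tamoxifen, and an effect of the Cre transgene cannot be told apart from that of the deletion.

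In endocrine cells, hormone granules are docked at the plasma membrane by scaffold and priming proteins, and fusion is driven by SNARE proteins under the control of calcium sensors. Enteroendocrine cells are the hormone-producing cells of the gut epithelium, and their formation requires the transcription factor Neurog3. The same exocytosis machinery is used by neurons, which are also present in the intestinal wall, and by pancreatic islets.

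Library totals ranged from 8213889 to 35076714 counts, of which the 10 genes together took 588 to 2755 counts per library. Neurog3 itself had 0 counts in all 8 mutant libraries, against 12 to 37 counts in control duodenum and 8 to 27 counts in control ileum. The summed level of 16 enteroendocrine markers was 13.1 to 29.2 CPM (counts scaled to the size of the library) in mutant duodenum, against 404.8 to 615.9 CPM in control duodenum. In the ileum the same sum was 10.9 to 18.9 CPM in mutants, against 290.9 to 432.5 CPM in controls. The markers of each tissue were high in the libraries labelled with it. The duodenal genes Pdx1 and Gata4 summed to 172.5 to 214.5 CPM in mutant duodenum and 187.4 to 240.7 CPM in control duodenum, while the ileal genes Fabp6 and Slc10a2 summed to 0.737 to 3.26 CPM over the 8 duodenal libraries. In the ileum Fabp6 and Slc10a2 summed to 1508 to 2543 CPM in mutants and 3045 to 5229 CPM in controls, without overlap (exact permutation test of the mean log2 level, two-sided p = 0.0286, the smallest that 4 against 4 allows). Fabp6 averaged 789.7 CPM in mutant ileum and 3038 CPM in control ileum, and neither gene was called. Pancreatic acinar genes made up 1.81% to 18.8% of counts in mutant duodenum and 6.57% to 14.8% in control duodenum. In the ileum that share was 0.046% to 0.512% in mutants and 0.117% to 0.845% in controls.

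RefSeq promoter windows in build GRCm38.p6 were at hand for 8 of the 10 genes, with 2 windows each for Ptprn and Vwa5b2. The 250 bases before the annotated start are shown for Rimbp2 and Baiap3. Both genes were lower in mutants of both tissues and were picked because their windows share a motif. The search covered both strands of these 250 bases for CAGATG and CAGCTG, E-box sequences bound by NEUROG- and NEUROD-class factors, for GGACAGC and TTCAGCACC, parts of the RE1 element bound by REST, for GTTGCC, part of the X-box bound by RFX factors, and for the TATAAA box. The windows lie at chr5:128953487-128953736 for Rimbp2 and at chr17:25256365-25256614 for Baiap3, both on the minus strand, and are written 5′ to 3′ with motif matches in capitals:
Rimbp2: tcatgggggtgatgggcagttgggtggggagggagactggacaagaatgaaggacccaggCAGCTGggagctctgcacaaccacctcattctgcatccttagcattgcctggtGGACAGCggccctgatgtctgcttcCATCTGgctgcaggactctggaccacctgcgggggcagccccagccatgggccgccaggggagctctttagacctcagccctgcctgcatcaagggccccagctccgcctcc
Baiap3: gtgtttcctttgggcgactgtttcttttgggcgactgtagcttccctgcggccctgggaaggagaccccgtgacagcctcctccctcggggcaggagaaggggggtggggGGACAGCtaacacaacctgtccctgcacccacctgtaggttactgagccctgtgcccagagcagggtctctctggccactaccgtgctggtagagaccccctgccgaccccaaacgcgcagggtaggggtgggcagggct
The Rimbp2 window held CAGCTG beginning 190 bases before the start, GGACAGC at 137 bases before it and CATCTG, the reverse complement of CAGATG, at 112 bases before it. The Baiap3 window held GGACAGC at 140 bases before its start. Vwa5b2, also lower in mutants of both tissues, held none of the motifs in either of its windows. Of 32851 mouse promoter windows, searched over the same 250 bases before the start, 14.4% held CAGATG, 13.0% held CAGCTG and 5.28% held GGACAGC. These motifs were found in 1, 2 and 2 of the 8 genes. GTTGCC was found in 1 of the 8 genes, in 1 of the 2 windows of Ptprn, against 10.4% of all windows. TTCAGCACC and TATAAA were found in 0 of the 8 genes, against 0.301% and 12.4% of all windows. The percentages count windows and the other values count genes, so the units differ. A match of letters is a description of the window and not a bound site.

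In the duodenum the data showed much lower RNA of Vwa5b2, Stxbp5l, Rimbp2 and Baiap3 in mutants. Vwa5b2 was at 6.49% and Stxbp5l at 8.57% of the control mean, while Rimbp2 was at 25.3% and Baiap3 at 36.8%. The other 6 genes did not pass the test. With edgeR's quasi-likelihood F test and Benjamini-Hochberg adjustment over the 14703 genes tested, 4 of the 10 genes were called lower at adjusted p under 0.05 and 0 higher, against 0.299% called lower and 0.0952% called higher among all genes tested. The CPM of mutants and controls did not overlap, with mutants lower, for 6 of the 10 genes, against 2.77% of all genes tested. The median log2 fold change was -0.55 over the 10 genes and -2e-04 over all genes tested. The 10 genes were chosen with earlier results of these data known, so these shares describe them and do not test the list. Vwa5b2, at 0 to 4 counts in mutants, and Stxbp5l, at 1 to 9, passed the filter through the controls. In whole tissue, fewer cells of a type and less RNA per cell cannot be told apart. The mean log2 level of 4 Paneth cell markers was higher in mutant duodenum by 0.67 and that of 6 tuft cell markers by 0.30 (exact permutation test, two-sided p = 0.0286 each), with 0 of the 4 genes tested in either list called. Their summed levels were 5218 to 6565 CPM in mutants and 2985 to 5626 CPM in controls for Paneth cells, and 48.4 to 79.2 CPM in mutants and 43.0 to 49.8 CPM in controls for tuft cells. Their part in these results was not tested.

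**Figure D1:**
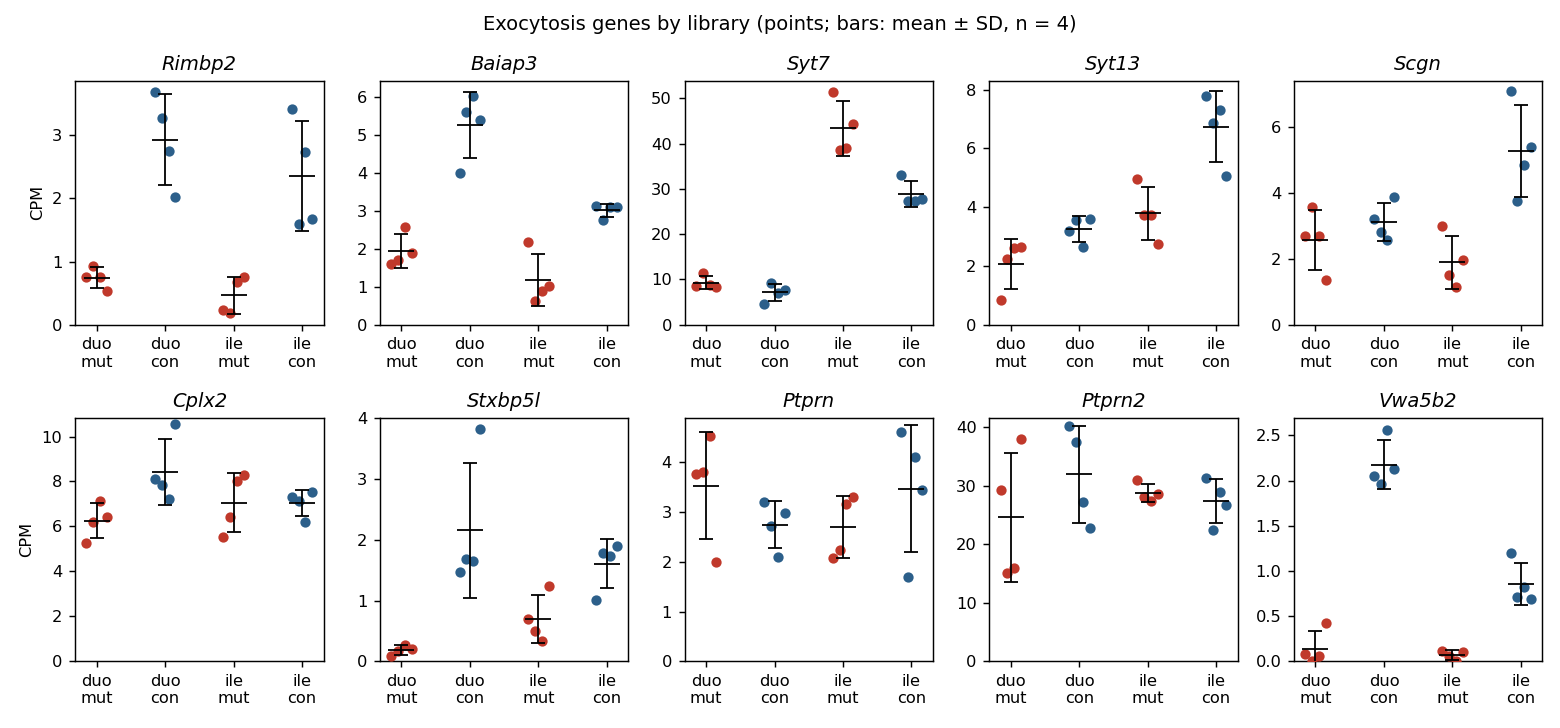
Level of each of the 10 exocytosis genes in every library, in CPM on a linear axis, with mutants to the left of controls within each tissue. Vwa5b2, Rimbp2 and Baiap3 sit lower in mutants of both tissues with no overlap, while Syt7 sits higher in mutant ileum.

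Among genes of the docking and priming step, Rimbp2 encodes a scaffold of the active zone that links RIM proteins to voltage-gated calcium channels. Its level was 0.753, 0.937, 0.75 and 0.526 CPM in the duodenum of mutants NFVCT27, NFVCT38, NFVCT153 and NFVCT190, against 3.68, 3.27, 2.75 and 2.02 CPM in the duodenum of the controls (NF17, NF29, NF32 and NF152 in turn). All 4 mutants lay below the lowest control, and the log2 fold change was -1.95 (SE 0.29, n = 4 each, edgeR adjusted p = 0.0145). The call was lost without NF17 (0.0775) or NF29 (0.0553). Baiap3 encodes a Munc13-like protein that acts in vesicle priming and dense-core vesicle recycling. It was measured at 1.59, 1.7, 2.58 and 1.9 CPM in the mutants, against 4.01, 5.61, 6.04 and 5.42 CPM in the controls, in the same order of animals. The groups were again separate, with a log2 fold change of -1.43 (SE 0.22, edgeR adjusted p = 0.0205). That call was lost without NF29, NF32, NF152, NFVCT27 or NFVCT38, each left out alone (edgeR adjusted p of 0.063 to 0.0913). In the annotation (GENCODE M21, build GRCm38), 140 exonic bases of Baiap3 overlap Tsr3 on the opposite strand. Tsr3 had 1199 counts and Baiap3 708 over the 16 libraries. The strand setting of the counting is not given in the sources used here, so the Baiap3 counts are uncertain to that extent. Other members also overlap genes of the opposite strand. Syt7 shares 384 exonic bases with Gm26859, whose counts were not available. Vwa5b2 shares 4 bases with Alg3, at 2027 counts, and 428 with Gm49748, at 0 counts. Rimbp2 shares 34 bases with Gm42875 (0 counts) and Ptprn 189 with Gm28294 (1 count).

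Stxbp5l, which encodes tomosyn-2, a syntaxin-binding protein that inhibits SNARE complex assembly, was at 0.0837, 0.176, 0.27 and 0.211 CPM in mutant duodenum, against 1.47, 1.68, 1.65 and 3.82 CPM in control duodenum. Every mutant was below every control, and NF152 stood above the other controls. The log2 fold change was -3.44 (SE 0.47, edgeR adjusted p = 0.00872), and it was -2.97 without NF152 (edgeR adjusted p = 0.0187). Without NFVCT38 the adjusted p was 0.0539. Its close relative Stxbp5, which encodes tomosyn-1, was not called, at a mean of 59.5 CPM in mutants and 59.2 CPM in controls (log2 fold change -0.004, SE 0.12, edgeR adjusted p = 0.997).

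Vwa5b2, a gene of little-known function whose product carries a von Willebrand factor A domain, had 1, 0, 2 and 4 counts in mutant duodenum. That corresponds to 0.0837, 0, 0.06 and 0.421 CPM in the 4 mutants, against 2.05, 1.96, 2.56 and 2.12 CPM in the 4 controls. The controls were within a narrow range and all mutants far below it. The log2 fold change was -4.32 (SE 0.59, edgeR adjusted p = 0.00872), and with so few mutant counts its size rests on single libraries. Without NFVCT190, which holds 4 of the 7 mutant counts, it was -5.34 (edgeR adjusted p = 0.00102).

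Syt13 encodes a synaptotagmin that lacks the usual calcium-coordinating residues. Its level was 0.837, 2.23, 2.61 and 2.63 CPM in mutant duodenum, against 3.19, 3.55, 2.66 and 3.61 CPM in control duodenum. The groups did not overlap, but the highest mutants and the lowest control nearly met, and the log2 fold change of -0.65 (SE 0.31) did not pass the test (edgeR adjusted p = 0.607). Scgn, which encodes the EF-hand protein secretagogin, was at 2.68, 3.57, 2.7 and 1.37 CPM in mutants, against 3.19, 2.81, 2.56 and 3.88 CPM in controls. The ranges overlapped, and the 95% interval of its log2 fold change was -0.88 to 0.33. Syt7, a calcium sensor of slow and sustained release, was at 8.53, 11.4, 8.72 and 8.43 CPM in mutants, against 4.67, 9.26, 7.05 and 7.65 CPM in controls. These also overlapped, and the 95% interval of the log2 fold change was -0.09 to 0.81 (edgeR adjusted p = 0.705).

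Cplx2 encodes a complexin, which clamps and activates assembled SNARE complexes. Its level was 5.27, 6.21, 7.13 and 6.42 CPM in mutant duodenum, against 8.10, 7.86, 7.24 and 10.6 CPM in control duodenum. The groups did not overlap, although NFVCT153 and NF32 nearly met, and the log2 fold change of -0.45 (SE 0.17) missed the threshold (edgeR adjusted p = 0.423). Ptprn and Ptprn2 encode IA-2 and IA-2β, phosphatase-like membrane proteins of the dense-core granule without phosphatase activity of the classical kind. Ptprn was at 3.77, 3.81, 4.53 and 2.001 CPM in mutants and at 3.19, 2.71, 2.11 and 2.97 CPM in controls. Mutants spanned the whole range of the controls, and the 95% interval of the log2 fold change was -0.20 to 0.91.

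Ptprn2 was at 29.2, 15.17, 15.98 and 38.02 CPM in mutant duodenum, against 40.3, 37.5, 27.3 and 22.8 CPM in control duodenum, and the groups overlapped widely (log2 fold change -0.39, SE 0.34, edgeR adjusted p = 0.872). The lowest values, in NFVCT38 and NFVCT153, stood beside the lowest acinar shares of the duodenal libraries, and the highest mutant value, in NFVCT190, beside the highest share. Over the 8 duodenal libraries Ptprn2 correlated with the acinar share at r = 0.85 (exact permutation p = 0.00694, adjusted over the 10 genes 0.0694) and rho = 0.90 (exact permutation p = 0.00456, adjusted 0.0456). Without NFVCT190 and NFVCT38, the libraries farthest from the median share, r was 0.80. This relation was examined after the Ptprn2 values were seen, and the other 9 genes gave r between -0.63 and 0.17 with no adjusted p under 0.05. In the ileum, at acinar shares of 0.046% to 0.845%, Ptprn2 averaged 28.7 CPM in mutants and 27.4 CPM in controls. The source of the Ptprn2 RNA was not tested.

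In the ileum, Rimbp2, Baiap3 and Vwa5b2 were again lower in mutants, Scgn and Syt13 were lower as well, and Syt7 was higher. Vwa5b2 was at 8.35%, Rimbp2 at 19.6%, Scgn at 36.0%, Baiap3 at 39.2% and Syt13 at 56.3% of the control mean, while Syt7 was at 150.1%. Of the 10 genes, 5 were called lower and 1 higher by edgeR's quasi-likelihood F test, against 1.51% called lower and 1.77% called higher among the 14951 genes tested. The same 6 genes were those whose groups did not overlap in CPM, against 4.7% non-overlapping with mutants lower and 5.08% with mutants higher among all genes tested. The median log2 fold change was -0.98 over the 10 genes and -0.0061 over all genes tested. As in the duodenum, these shares do not test the list, which was chosen with earlier results of these data known. Vwa5b2, at 0 to 2 counts in mutants, passed the filter through the controls. The summed level of 8 smooth muscle genes was 4068 to 5618 CPM in mutant ileum, against 2362 to 3455 CPM in control ileum, with no overlap (exact permutation test of the mean log2 level, two-sided p = 0.0286, the smallest that 4 against 4 allows). Of the 8 smooth muscle genes, 5 were called higher. With that list's score as a covariate none of the 10 genes was called, while the log2 fold changes were -4.08 for Vwa5b2, -3.35 for Rimbp2, -1.57 for Scgn, -1.41 for Syt13, -1.23 for Baiap3 and 0.54 for Syt7 (edgeR adjusted p of 0.153 to 0.649). Calls over all genes numbered 21 with that score, against 226 lower and 264 higher without it. Score and genotype do not overlap in the ileum, and their effects cannot be told apart there.

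**Figure D2:**
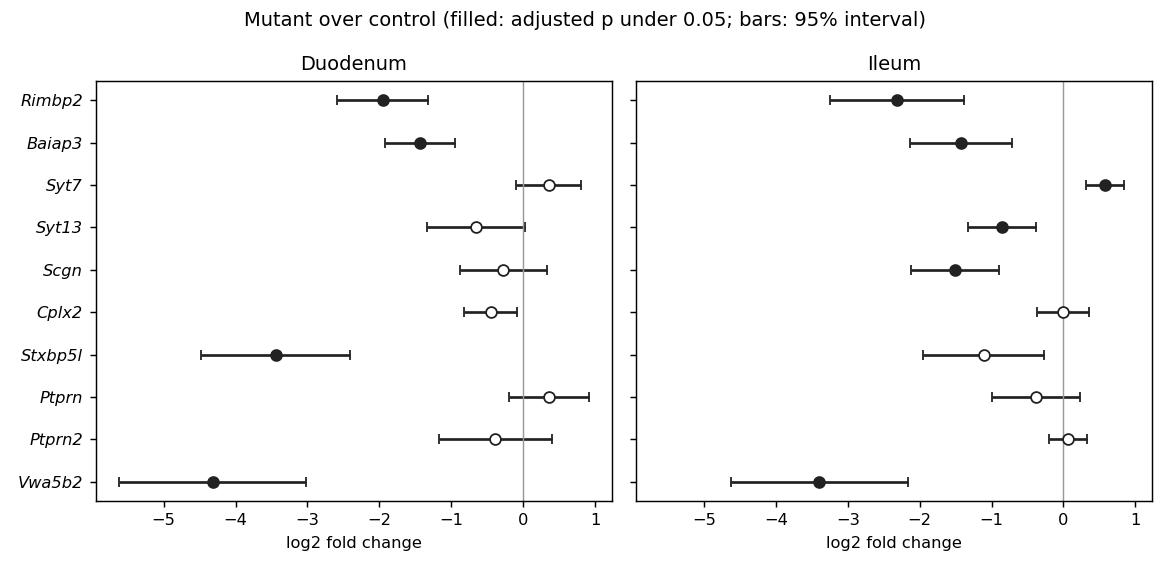
Log2 fold change of mutant over control for each of the 10 exocytosis genes in duodenum and ileum, with 95% intervals from the edgeR fit (filled points, adjusted p under 0.05). The intervals of Vwa5b2, Rimbp2, Baiap3 and Stxbp5l lie below 0 in both tissues, although Stxbp5l was not called in the ileum. That of Syt7 lies above 0 in the ileum.

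Rimbp2 was at 0.23, 0.187, 0.677 and 0.758 CPM in the ileum of mutants NFVCT27, NFVCT38, NFVCT153 and NFVCT190, against 3.41, 1.6, 2.74 and 1.68 CPM in the ileum of the controls (NF17, NF29, NF32 and NF152 in turn). Every mutant was below every control (log2 fold change -2.32, SE 0.44, n = 4 each, edgeR adjusted p = 0.00936). Baiap3 was at 2.19, 0.624, 0.902 and 1.03 CPM in mutants, against 3.12, 2.76, 3.1 and 3.1 CPM in controls. The controls were tight, and NFVCT27 was the mutant nearest to them (log2 fold change -1.42, SE 0.33, edgeR adjusted p = 0.0320). That call was lost in 6 of the 8 fits that left out 1 library, all but those without NF29 or NFVCT27, with an edgeR adjusted p of up to 0.103.

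Vwa5b2 had 1, 1, 0 and 2 counts in mutant ileum, or 0.115, 0.0624, 0 and 0.108 CPM, against 1.2, 0.712, 0.822 and 0.69 CPM in control ileum. All mutants were again near the floor (log2 fold change -3.40, SE 0.58, edgeR adjusted p = 0.00529). Stxbp5l differed from its duodenal picture, at 0.691, 0.499, 0.338 and 1.25 CPM in mutants, against 1.02, 1.78, 1.74 and 1.9 CPM in controls. NFVCT190 lay within the range of the controls, and the log2 fold change of -1.11 (SE 0.40) did not pass the test (edgeR adjusted p = 0.163).

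Scgn was at 2.99, 1.5, 1.13 and 1.95 CPM in mutant ileum, against 7.08, 3.74, 4.84 and 5.39 CPM in control ileum. The groups were separate, the log2 fold change was -1.51 (SE 0.28, edgeR adjusted p = 0.00942), and the call held without any single library. Syt13 was at 4.95, 3.74, 3.72 and 2.76 CPM in mutants, against 7.77, 6.85, 7.31 and 5.04 CPM in controls. NFVCT27 and NF152 nearly met, and the log2 fold change was -0.85 (SE 0.22, edgeR adjusted p = 0.0479). This call was the closest of the 10 genes to the threshold and was lost in 6 of the 8 fits that left out 1 library, all but those without NF152 or NFVCT27, with an adjusted p of up to 0.140.

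Syt7 was the only member called higher. Its level was 51.5, 38.5, 39.0 and 44.4 CPM in mutant ileum, against 33.1, 27.2, 27.4 and 27.8 CPM in control ileum. All mutants lay above the highest control, NF17, which itself stood above the other controls. The log2 fold change was 0.58 (SE 0.12, edgeR adjusted p = 0.0191), and the adjusted p was 0.0615 without NF32, 0.0513 without NF152 and 0.0595 without NFVCT27. In CPM the difference in Syt7, 14.5 CPM higher in mutants, was larger than that of any of the 5 genes that fell, the largest of which was 3.37 CPM for Scgn. Tuft cell markers also differed between these libraries, with a summed level over 6 genes of 67.5 to 97.1 CPM in mutant ileum and 38 to 52.8 CPM in control ileum, and all 4 of those tested were called higher. The mean log2 level was also higher in mutant ileum for 4 Paneth cell markers, by 0.57, and for 4 goblet cell markers, by 0.40 (exact permutation test, two-sided p = 0.0286 each), with 1 of the 4 genes called higher in each list. The part of these cell types in the Syt7 difference and in the other ileal results was not tested.

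The remaining genes showed no call in the ileum. Cplx2 averaged 7.06 ± 1.31 CPM in mutants and 7.04 ± 0.58 CPM in controls (SD, n = 4 each), and the 95% interval of its log2 fold change was -0.36 to 0.36. Ptprn averaged 2.69 ± 0.63 CPM in mutants and 3.47 ± 1.28 CPM in controls, with an interval of -1.0 to 0.24. Ptprn2 averaged 28.7 ± 1.6 CPM in mutants and 27.4 ± 3.8 CPM in controls, with the narrowest interval of the 10 genes in this tissue, -0.20 to 0.32.

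Enteric neurons also release transmitter by regulated exocytosis, and the level of 15 of their markers is given beside these results. Their sum was 57.0 to 78.4 CPM in mutant duodenum and 43.4 to 78.2 CPM in control duodenum. There 0 of the 12 genes tested were called, against 0.299% lower and 0.0952% higher among all genes tested. In the ileum their sum was 61.8 to 87.0 CPM in mutants and 55.2 to 82.7 CPM in controls. Of the 13 tested there 1, Vip, was called lower, against 1.51% of all genes tested. None of the neuron markers was at 0 throughout. With the neuron score as a covariate, 2 of the 10 exocytosis genes were called in the duodenum (Stxbp5l and Vwa5b2) and 5 in the ileum. Over all genes, 34 were called in the duodenum with that score, against 58 without it. The log2 fold changes of the genes that missed the threshold with the score were near those without it. They were -1.91 for Rimbp2 (edgeR adjusted p = 0.0603) and -1.44 for Baiap3 (0.0714) in the duodenum and -0.84 for Syt13 (0.0590) in the ileum. Islet markers in the duodenum summed to 27.5, 44.8, 0.21 and 84.7 CPM in the 4 mutants, against 2.25 to 29.6 CPM in controls. Without the 2 libraries of highest islet score in each genotype, an alternative chosen after seeing the data, none of the 10 genes was called in the duodenum. That fit called 25 genes in all, against 58 with every duodenal library. The log2 fold changes were then -4.86 for Vwa5b2 (edgeR adjusted p = 0.0631), -3.77 for Stxbp5l (0.185), -1.83 for Rimbp2 (0.391) and -1.40 for Baiap3 (0.352), with 2 libraries per genotype left. In the ileum, islet markers summed to 0 to 1.62 CPM in mutants and 1.16 to 2.19 CPM in controls, with Slc30a8 at 0 counts.

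The genotype effects in the ileum and the duodenum were then compared directly by an interaction term over all 16 libraries. None of the 10 genes was called, against 0.0441% of the 15882 genes tested. An unadjusted edgeR p under 0.05 was found for 2 of the 10, against 700 of the 15882. For Stxbp5l the effect in the ileum exceeded that in the duodenum by 2.33 on the log2 scale (SE 0.64), a smaller fall in the ileum, with an unadjusted edgeR p of 0.00184 and an adjusted p of 0.431. For Scgn the ileal effect was more negative by -1.22 (SE 0.41), with an unadjusted edgeR p of 0.00844 and an adjusted p of 0.778. DESeq2 and the fit with the animal as a block also called 0 of the 10. For Baiap3 the difference was 0.03 with a 95% interval of -0.93 to 0.98, and for Rimbp2 it was -0.36 with an interval of -1.48 to 0.77. A different effect of the genotype in the 2 tissues was therefore not shown for any of these genes.

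Between tissues, 5 of the 10 genes were called in the control animals, whose enteroendocrine markers were present. The fit did not pair the tissues by animal. Syt7 was higher in control ileum, at 28.9 ± 2.8 CPM, than in control duodenum, at 7.16 ± 1.90 CPM (log2 fold change 2.0, SE 0.18, edgeR adjusted p = 2.53e-06). Syt13 averaged 6.74 ± 1.19 CPM in control ileum and 3.25 ± 0.44 CPM in control duodenum (log2 fold change 1.02, SE 0.20, edgeR adjusted p = 0.00146). Scgn was also called higher in control ileum (log2 fold change 0.74, SE 0.23, edgeR adjusted p = 0.0231), but not without NF17 (0.164) or NF32 (0.0847). In the other direction, Vwa5b2 averaged 0.855 ± 0.236 CPM in control ileum and 2.17 ± 0.27 CPM in control duodenum (log2 fold change -1.32, SE 0.29, edgeR adjusted p = 0.00338). Baiap3 averaged 3.02 ± 0.18 CPM in control ileum and 5.27 ± 0.88 CPM in control duodenum (log2 fold change -0.81, SE 0.20, edgeR adjusted p = 0.00573). These 3 higher and 2 lower calls among 10 genes compare with 17.1% called higher and 18.7% called lower among the 14976 genes tested, so calls between tissues were common. Rimbp2, Cplx2, Stxbp5l, Ptprn and Ptprn2 did not pass the test.

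**Figure D3:**
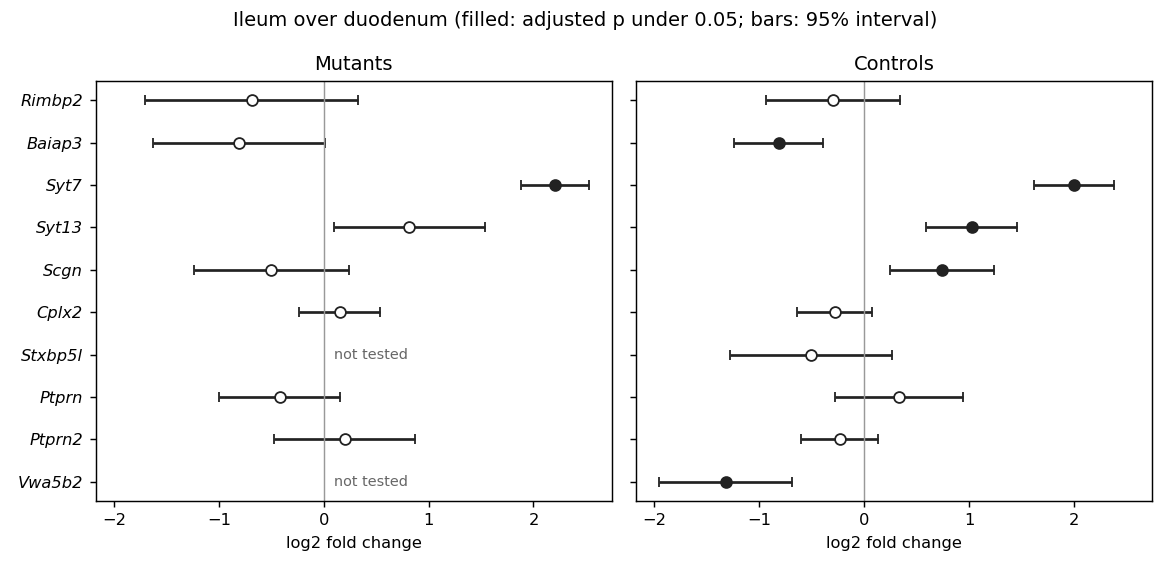
Log2 fold change of ileum over duodenum for each exocytosis gene, in mutants and in controls, with 95% intervals from the edgeR fit (filled points, adjusted p under 0.05). Syt7 lies near 2 in both genotypes, and Stxbp5l and Vwa5b2 have no value in mutants because they did not pass the filter on low counts there.

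In mutants, 8 of the 10 genes could be tested between tissues, Stxbp5l and Vwa5b2 having too few counts. Of these only Syt7 was called, at 43.4 ± 6.0 CPM in mutant ileum and 9.26 ± 1.41 CPM in mutant duodenum (log2 fold change 2.2, SE 0.15, edgeR adjusted p = 1.97e-06), against 15.2% called higher and 17.1% called lower of the 14950 genes tested. Syt13 had a log2 fold change of 0.82 (SE 0.33, edgeR adjusted p = 0.0777), Baiap3 one of -0.81 (SE 0.37, 0.121) and Scgn one of -0.50 (SE 0.34, 0.286). The tissue comparisons share their libraries with the comparisons of genotype and are not independent of them.

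Expressed per length of exon (CPM per kb), the order of the 10 genes changed with genotype and tissue. In mutant duodenum Ptprn2 (2.86), Scgn (1.59), Cplx2 (1.27) and Syt7 (1.24) stood at the top with overlapping ranges, and Rimbp2 (0.0934), Stxbp5l (0.0217) and Vwa5b2 (0.0186) at the bottom. In control duodenum Ptprn2 (3.72) led alone, followed by Scgn (1.92) and Cplx2 (1.71), and Rimbp2 (0.369), Vwa5b2 (0.287) and Stxbp5l (0.253) again stood lowest, with ranges that overlapped from each to the next. In mutant ileum Syt7 (5.79) led without overlap ahead of Ptprn2 (3.34), and Vwa5b2 (0.0094) stood last. In control ileum Syt7 (3.86), Scgn (3.25) and Ptprn2 (3.18) had overlapping ranges at the top, and Rimbp2 (0.297), Stxbp5l (0.189) and Vwa5b2 (0.113) stood at the bottom. Rimbp2, Stxbp5l and Vwa5b2, lowest per length in controls of both tissues, were at the lowest shares of the control level in mutant duodenum, but in mutant ileum Stxbp5l, at 43.1%, was above Scgn and Baiap3.

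The wider release machinery was described with 82 further genes in lists of SNARE and SM proteins, active-zone, priming and Rab effector genes, other synaptotagmins with Doc2 proteins and complexins, and the closest relatives of the 10 genes. In the duodenum 67 of these were tested and 0 were called, against 0.299% called lower and 0.0952% called higher among all genes tested. The median log2 fold change of the 67 was 0.07, with a range of -0.53 to 0.69. Genes of the textbook core of the fusion machinery were among them. Snap25, the plasma membrane SNARE of neurons and endocrine cells, averaged 4.21 CPM in mutant duodenum and 4.07 CPM in control duodenum (95% interval of the log2 fold change -0.64 to 0.67). Vamp2, its vesicle partner, averaged 8.38 CPM in mutants and 8.08 CPM in controls, with an interval of -0.47 to 0.52. Rims2, a RIM scaffold, averaged 3.70 CPM in mutants and 3.62 CPM in controls, with a wider interval of -1.02 to 0.99. Unc13a, Stx1a, Rab3a and Syt1 were not called either.

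In the ileum 66 of the 82 genes were tested, and 2 were called higher and 1 lower, against 1.77% and 1.51% of all genes tested. Syt2, a fast calcium sensor, averaged 2.68 CPM in mutant ileum and 8.83 CPM in control ileum (log2 fold change -1.70, SE 0.32, edgeR adjusted p = 0.0126). In the duodenum Syt2 averaged 1.37 CPM in mutants and 0.902 CPM in controls and was not called, and the interaction of -2.26 (SE 0.48) did not pass the test either (edgeR adjusted p = 0.189). Syt12, a synaptotagmin not thought to bind calcium, averaged 24.2 CPM in mutant ileum and 13.8 CPM in control ileum (log2 fold change 0.79, SE 0.17, edgeR adjusted p = 0.0181). Nsf, the ATPase that takes used SNARE complexes apart, averaged 78.4 CPM in mutant ileum and 58.0 CPM in control ileum (log2 fold change 0.43, SE 0.10, edgeR adjusted p = 0.0285). Of the core, Stx1a had the lowest fold change in the ileum, at 0.709 CPM in mutants and 1.38 CPM in controls, and did not pass the test (log2 fold change -0.95, SE 0.41, edgeR adjusted p = 0.265).

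**Figure D4:**
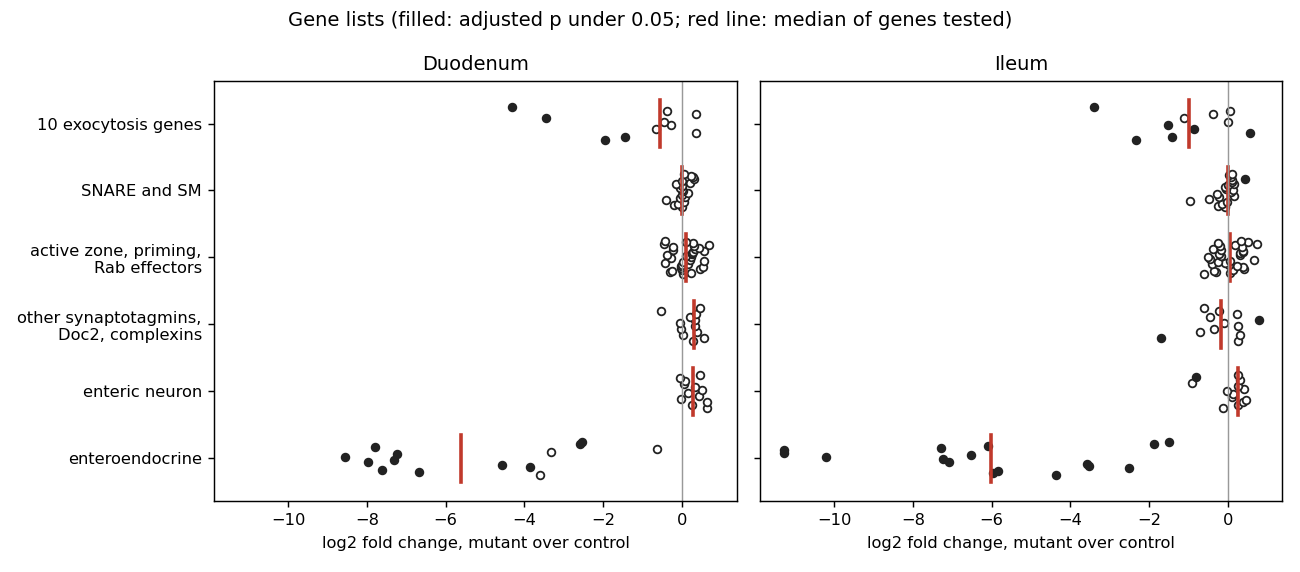
Log2 fold change of mutant over control for each tested gene of the 10 exocytosis genes, 3 lists of release machinery, the enteric neuron markers and the enteroendocrine markers, in duodenum and ileum (filled points, adjusted p under 0.05; red line, median of the genes tested). Most enteroendocrine markers lie far below 0, the exocytosis genes have medians of -0.55 in duodenum and -0.98 in ileum, and the release machinery lies nearer 0 except Syt2 in the ileum at -1.70.

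Across the 16 libraries the 5 genes most like the mean log2 level of the 10 were Sct (r = 0.95), Gfra3 (0.94), Chgb (0.93), Lmx1a (0.93) and Neurod1 (0.92), out of 15882 genes compared. Sct encodes the hormone secretin, Chgb a granule protein, and Lmx1a and Neurod1 are transcription factors of endocrine cells. The libraries share genotype and tissue, so these values describe the group pattern. With the group means removed, the 5 most alike were other genes, Tst (0.89), Kcnh2 (0.89), Pald1 (0.87), Fndc4 (0.84) and Adcyap1r1 (0.82). Among the 10 genes themselves, the correlation of each with the mean of the other 9 over the 16 libraries was highest for Stxbp5l (0.83), Vwa5b2 (0.74) and Rimbp2 (0.74). It was lowest for Syt7 (-0.23), Ptprn (-0.02) and Ptprn2 (0.22), so the 10 did not vary as a single block.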

How the data were processed

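Total RNA of duodenum and ileum (NucleoSpin RNA) was made into stranded total RNA libraries (TruSeq) after removal of ribosomal RNA with Ribo-Zero, per the labels' protocols. Per the submitters' processing notes, STAR 2.5.3a, HTSeq 0.6.1p1, cutadapt 1.10, Bowtie2 2.2.8 and bcl2fastq 2.20.0.422 were used, with build mm39. The deposited values are raw counts per Ensembl gene, with no normalization, in 1 table of 16 libraries. How strand was set in counting, and which annotation release was taken, is not given in the sources used here.

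Symbols were matched for 52083 of 55359 identifiers, which hold 98.3% of counts. Genes were filtered with filterByExpr, scaled by TMM and tested with edgeR 4.0.16 in R 4.3.3 (quasi-likelihood F test, robust, two-sided), with Benjamini-Hochberg adjustment over all genes tested and a threshold of 0.05. Each tissue was fitted alone, and the difference between tissues was tested over all 16 libraries. The main fits between tissues and of the interaction did not use the pairing by animal, which entered only as an alternative. SE is the log2 fold change divided by the square root of F, and 95% intervals use its t quantile. CPM values use TMM scaling over all 16 libraries, SD is over 4 libraries, and levels per kb divide by the exon union of GENCODE M21 (GRCm38). Marker scores are mean log2 CPM with a prior count of 2 and were compared by exact permutation tests. The fits were tested on simulated data. Intervals and small counts cover only the spread between libraries or counting error, and PCR reads without molecular identifiers are not independent molecules. Libraries of the same animal correlated at 0.127 to 0.327 in their deviations from group means (8 animals). For 7 of the 8 the duodenum correlated best with the ileum of the same animal. The duodenum of NFVCT190 correlated at 0.144 with its own ileum and at 0.219 with that of another animal. The labels give the pairing by animal. No 2 libraries of a group agreed within counting error (chi-square per degree of freedom 10.6 to 349.9 over 24 pairs).

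The 10 genes and all lists were chosen with earlier results of these data known. All 10 are described. Of the 4 lists of release machinery, called genes and a textbook core are named (1 gene of that core is not reported here), and of other genes the 5 most alike. Alternatives were DESeq2 size factors, no filter, DESeq2 1.42.0, limma-voom (limma 3.58.1), marker scores as covariates, the animal as a block, and libraries left out. RefSeq windows of GRCm38.p6 were used for promoters only, and no coordinates of mm39 were used.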

Additional observations from a re-analysis of the deposited data

Results flagged for a closer look

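In groups of 4 libraries, a library was singled out when its gap to the nearest other library, as a share of the whole range of the group, exceeded the critical value of Dixon's test. Of 40 groups tested (10 genes in 4 groups), 4 had such a library, and chance flags about 1 in 20 groups. Stxbp5l in control duodenum had a gap of 0.911 of the range, with NF152 at 3.82 CPM and the other controls at 1.47 to 1.68 CPM. Syt7 in mutant duodenum had a gap of 0.898, with NFVCT38 at 11.4 CPM and the other mutants at 8.43 to 8.72 CPM. Syt7 in control ileum had a gap of 0.902, with NF17 at 33.1 CPM and the other controls at 27.2 to 27.8 CPM. Baiap3 in control ileum had a gap of 0.95, with NF29 at 2.76 CPM and the other controls at 3.10 to 3.12 CPM. Without the library in question, the calls for Stxbp5l in the duodenum and for Syt7 and Baiap3 in the ileum held, and Syt7 in the duodenum had no call with or without it.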

How the results depend on the processing

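Of 626 values of the 10 genes under alternatives, 576 kept their side of the threshold, 46 lost the call and 4 gained one. Only genes called in the main fit could lose a call, so the 46 are a larger share of the called values than of the 626. The 626 include all values of the interaction, where none of the 10 genes was called. The sign changed in 18 of the 626, all of them values without a call, and in 0 of the called values. In the duodenum 58 genes were called in all, against 169 without a filter, 310 with DESeq2, 34 with the enteric neuron score as covariate, 31 when each genotype lost its library richest in acinar counts, 25 without the 2 libraries of highest islet score in each, and 27 to 61 when 1 library was left out. Calls among the 10 genes there numbered 4, against 2 with the neuron score, 2 with the smooth muscle score, 2 without the highest acinar shares, 0 without the highest islet scores and 2 to 4 with 1 library left out. Vwa5b2 kept its call in all 8 such fits, Stxbp5l lost it without NFVCT38 (edgeR adjusted p = 0.0539), Rimbp2 without NF17 (0.0775) or NF29 (0.0553), and Baiap3 without NF29, NF32, NF152, NFVCT27 or NFVCT38 (0.063 to 0.0913).

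In the ileum 490 genes were called, against 1096 without a filter, 875 with DESeq2, 21 with the smooth muscle score, 246 with the islet score and 272 to 472 with 1 library left out. Calls among the 10 genes numbered 6, against 0 with the smooth muscle score and 3 to 5 with 1 library left out. Rimbp2 and Scgn kept their calls in all 8 fits, and Vwa5b2 passed the filter in 4 of 8 and was called in each. With the smooth muscle score the uncalled Stxbp5l had a log2 fold change of 0.37, opposite in sign. The islet alternatives were chosen after seeing the data.

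For the difference between tissues 7 genes were called, against 15 without a filter, 38 with DESeq2, 16 with the replicate block (animal) and 1 to 9 with 1 animal left out. The paired fits changed no call among the 10 genes. Between tissues, leaving out 1 animal gave 3443 to 4787 calls in controls and 2818 to 4489 in mutants. Among the 10 genes, mutants had 1 call between tissues, against 2 without a filter, with DESeq2 and with limma-voom, and 1 to 2 with 1 animal left out. The causes of these shifts were not tested. Depth limits the genes of few counts, Vwa5b2 above all.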

Other observations

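Beyond the called genes, the active-zone, priming and Rab effector list had its 4 smallest p-values in the ileum for Mlph, Sytl2, Sytl5 and Rab27a. Mlph averaged 45.8 CPM in mutant ileum and 31.8 CPM in control ileum (log2 fold change 0.52, SE 0.14, edgeR adjusted p = 0.0565). Sytl2 averaged 94.0 CPM in mutants and 72.3 CPM in controls, with an edgeR adjusted p of 0.0857. Sytl5 averaged 8.14 CPM in mutants and 4.82 CPM in controls, with an edgeR adjusted p of 0.0886. Rab27a averaged 39.8 CPM in mutants and 30.1 CPM in controls, with an edgeR adjusted p of 0.115. None passed the threshold. In the ileum 0 of the 31 tested genes of that list were called, against 1.51% lower and 1.77% higher among all genes tested.

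Between tissues, 64 of the 82 genes of the release machinery were tested in controls, and 19 were called higher and 2 lower in control ileum, against 17.1% higher and 18.7% lower among all genes tested. In mutants 65 were tested, and 19 were called higher and 5 lower in mutant ileum, against 15.2% higher and 17.1% lower among all genes tested. Rab3a, a small GTPase of synaptic vesicles, was among those lower there, at 5.21 CPM in mutant ileum and 8.29 CPM in mutant duodenum (log2 fold change -0.70, SE 0.19, edgeR adjusted p = 0.0154).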
